A study of Mus musculus with 2 samples.

Results

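10 of the 54146 genes listed in the deposited tables were followed here: the imprinted genes *H19*, *Igf2*, *Igf2r*, *Meg3*, *Rian*, *Mirg*, *Peg3*, *Peg10*, *Grb10* and *Cdkn1c*, which were chosen by symbol and all had a row. They were described in mouse embryonic stem (ES) cells from 2 single-cell libraries, 1 labelled wild-type and untreated and 1 labelled *Lin28a* knockout. Both were labelled as derived from the inner cell mass and grown for 2 days on gelatin with mouse embryonic fibroblast feeders in LIF/2i medium, and each was a single clone of the E14 line, the wild-type one transfected but not edited and the knockout one made with CRISPR/Cas9 and a guide against an exon of *Lin28a*. The cells were captured in droplets (inDrop), where each captured transcript is tagged at its 3′ end with a unique molecular identifier (UMI). With 1 library per condition the genotype and every other difference between the cultures cannot be told apart, no test was possible, and all intervals below are exact 95% intervals that cover counting error only.

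Imprinted genes are expressed mainly from 1 parental copy, because DNA methylation laid down in the egg or sperm marks an imprinting control region and is kept through early development by ZFP57, ZFP445, TRIM28 and DNMT1. *Meg3*, *Rian* and *Mirg* are maternally expressed noncoding RNAs that follow each other on 1 strand of the Dlk1-Dio3 domain, and they carry many microRNAs and small nucleolar RNAs. *H19* is a maternally expressed noncoding RNA that shares enhancers with the paternally expressed growth factor gene *Igf2*, and both are known for high levels in fetal mesoderm. *Igf2r* (maternal) encodes the receptor that clears IGF2, *Grb10* an adaptor that restrains insulin signalling, *Cdkn1c* (maternal) a cyclin-dependent kinase inhibitor, *Peg3* (paternal) a zinc finger protein and *Peg10* (paternal) a retrotransposon-derived protein needed in placenta. Loss or gain of imprints in culture is a known hazard of ES cells, but UMI counts do not tell the parental copies apart, so imprinting itself was not measured here.

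In the GENCODE M21 annotation of GRCm38, the build that matches the mm10 named in the submitters' processing notes, *Meg3* (ENSMUSG00000021268.17) spans chr12:109541001-109571726, *Rian* (ENSMUSG00000097451.10) chr12:109603940-109661716 and *Mirg* (ENSMUSG00000097391.8) chr12:109729764-109749460, all on the plus strand. *H19* (ENSMUSG00000000031.16) lies at chr7:142575529-142578143, *Igf2* (ENSMUSG00000048583.16) at chr7:142650766-142666816 and *Cdkn1c* (ENSMUSG00000037664.13) at chr7:143458339-143461050, all on the minus strand of distal chromosome 7. *Peg3* (ENSMUSG00000002265.16) lies at chr7:6703892-6730431 on the minus strand and *Peg10* (ENSMUSG00000092035.8) at chr6:4747306-4760517 on the plus strand. *Grb10* (ENSMUSG00000020176.17) lies at chr11:11930508-12038683 and *Igf2r* at chr17:12682406-12769664, both on the minus strand; the file lists *Igf2r* as ENSMUSG00000023830.13, an earlier version of the annotated entry.

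Windows at RefSeq starts of the 3 neighbouring noncoding RNAs are shown because the domain holds the most abundant of the 10 genes and both that passed the 1.5-fold limit used below. RefSeq windows (GRCm38.p6, plus strand, 250 bases before to 50 after a start) are written 5′ to 3′ with CG dinucleotides, the sites of DNA methylation, in capitals. They are chr12:109540746-109541045 for the first of 2 *Meg3* starts, chr12:109603695-109603994 for *Rian* and chr12:109734731-109735030 for *Mirg*, whose RefSeq start lies inside the GENCODE gene. The *Mirg* window holds mature microRNAs of *Mirg*: mmu-miR-668-5p (chr12:109734733-109734756), mmu-miR-668-3p (chr12:109734774-109734797) and mmu-miR-485-3p (chr12:109734946-109734967). Before the window lies mmu-miR-382-5p of *Mirg* (chr12:109733781-109733802). Whether that window acts as a promoter was not tested.
Meg3: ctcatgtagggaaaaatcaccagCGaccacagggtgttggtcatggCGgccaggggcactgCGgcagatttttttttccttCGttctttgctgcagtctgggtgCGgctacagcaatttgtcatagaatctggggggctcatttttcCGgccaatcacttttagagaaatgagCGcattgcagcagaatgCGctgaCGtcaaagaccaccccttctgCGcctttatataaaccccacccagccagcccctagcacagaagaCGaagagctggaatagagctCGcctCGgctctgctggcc
Rian: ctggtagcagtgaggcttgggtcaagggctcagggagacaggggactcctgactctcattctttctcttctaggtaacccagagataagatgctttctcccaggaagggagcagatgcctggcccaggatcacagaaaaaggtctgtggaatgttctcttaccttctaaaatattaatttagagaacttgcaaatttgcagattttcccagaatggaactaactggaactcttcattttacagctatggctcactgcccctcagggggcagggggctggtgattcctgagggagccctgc
Mirg: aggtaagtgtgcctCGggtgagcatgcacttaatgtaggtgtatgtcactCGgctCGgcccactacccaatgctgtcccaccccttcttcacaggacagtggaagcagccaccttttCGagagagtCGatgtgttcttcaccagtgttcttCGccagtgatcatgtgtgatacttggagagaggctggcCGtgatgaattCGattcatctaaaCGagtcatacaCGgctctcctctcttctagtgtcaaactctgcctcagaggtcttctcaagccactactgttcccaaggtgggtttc
The *Meg3* window held 13 CG, the *Mirg* window 10 and the *Rian* window 0, against a median of 7 over 32851 RefSeq promoter windows. As many CG as in the *Meg3* window were found in 37.9% of all windows, and none, as for *Rian*, in 5.43%. TGCCGC, the core letters recognised by ZFP57 when methylated, searched on both strands, occurred once in the first *Meg3* window and in neither of the other two, and 11.6% of all windows held it. Of the 10 genes 7 had windows in the table, 12 in all, from 0 CG for *Rian* to 45 for 1 of the *Grb10* starts.

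The members that host microRNAs are shown with 1 hairpin each, to make plain what these transcripts carry. *H19*, *Igf2* and *Meg3* each held 1 annotated hairpin on their own strand, *Rian* 3 and *Mirg* 14, and 54 plus-strand hairpins lay in the 208460 bases from the start of *Meg3* to the end of *Mirg*. The mature sequences (RefSeq, GRCm38.p6) have the seed, bases 2 to 8, in capitals; the first pair belongs to *H19*, followed by those of *Igf2*, *Meg3*, *Rian* and *Mirg*.
mmu-miR-675-5p: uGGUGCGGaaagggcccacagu
mmu-miR-675-3p: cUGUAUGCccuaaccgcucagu
mmu-miR-483-5p: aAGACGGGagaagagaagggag
mmu-miR-483-3p: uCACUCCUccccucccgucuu
mmu-miR-770-5p: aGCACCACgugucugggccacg
mmu-miR-770-3p: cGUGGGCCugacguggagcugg
mmu-miR-370-5p: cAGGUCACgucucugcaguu
mmu-miR-370-3p: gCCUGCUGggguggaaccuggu
mmu-miR-410-5p: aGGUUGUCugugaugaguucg
mmu-miR-410-3p: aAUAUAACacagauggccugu
The 38 mature microRNAs hosted by members had 37 different seeds. The 1 shared seed, GGUUGCC, was that of the following pair, both in *Mirg*.
mmu-miR-453: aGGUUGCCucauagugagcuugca
mmu-miR-496a-5p: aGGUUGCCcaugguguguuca
The libraries were primed from poly(A) tails, so the levels below are those of the host transcripts and not of the mature microRNAs.

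The tables held 4329 barcodes with 12079546 UMIs for wild-type and 6060 with 10027710 UMIs for knockout. Barcodes with at least 500 UMIs and at most 20% of them on mitochondrial genes numbered 1856 and 1622. Feeder fibroblasts were set apart where *Col1a1*, *Col1a2* and *Col3a1* together took at least 0.3% of the UMIs. This gave 48 cells in the wild-type library (2.59%, interval 1.91 to 3.41) and 23 in the knockout library (1.42%, 0.901 to 2.12), here called fibroblast-rule cells. For these cells wild-type and knockout name the library and not a genotype. The edit was made in the ES clone and not in the feeder fibroblasts. From 0.2% to the limit there were 2 wild-type and 4 knockout cells, and from the limit to 0.4% there were 6 and 1. The remaining ES-side cells numbered 1808, with a median of 6112 UMIs, and 1599, with a median of 5072. The 12 ES markers summed to 5376 and 5383 UMIs per 1000000 (CPM) in ES-side cells of the wild-type and knockout library. In fibroblast-rule cells they summed to 1182 and 1199 CPM, where 0 of the 12 were at 0. Of these sums *Klf4* alone gave 760 and 452 CPM, against 580 and 514 CPM in ES-side cells. The other ES markers were lower in fibroblast-rule than in ES-side cells of both libraries, with ratios of at most 0.372 and 0.450 (*Tbx3*). The 15 fibroblast markers outside the rule summed to 713 and 714 CPM in ES-side cells, mostly *Fn1* and *Sparc*, and to 18110 and 13586 CPM in fibroblast-rule cells. Primitive endoderm (23.4 and 28.8 CPM), trophoblast (22.0 and 20.9) and 2-cell markers (3.03 and 3.04) were low in ES-side cells, and 7 primed epiblast markers summed to 100.6 and 78.6. *Lin28a* itself had 1239 UMIs (111 CPM) in wild-type and 340 (36.9 CPM) in knockout ES-side cells, a ratio of 0.333 (0.295 to 0.376), so the label held as a difference of level and not as an absence of reads.

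*Meg3* was by far the most abundant of the 10 genes. It had 7005 UMIs in wild-type ES-side cells, 625 CPM (610 to 640), and 4133 UMIs in knockout cells, 448 CPM (434 to 462). The ratio of knockout over wild-type was 0.717 (0.690 to 0.745), and 84.1% of wild-type against 65.5% of knockout cells had at least 1 UMI. When every cell was taken at 500 UMIs these shares were 26.1% and 21.1%. A lower level in knockout cells thus stood beside a lower share of cells, and the counting intervals of the CPM did not overlap.

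*Rian*, the next gene on the strand and a host of small nucleolar RNAs, differed more. It had 2038 UMIs (182 CPM, 174 to 190) in wild-type and 776 (84.1 CPM, 78.3 to 90.2) in knockout ES-side cells, a ratio of 0.463 (0.425 to 0.503). At least 1 UMI was found in 53.4% and 31.0% of the cells, or in 8.89% and 5.57% of them at 500 UMIs. *Mirg*, the microRNA host at the end of the run, had 531 UMIs (47.4 CPM, 43.4 to 51.6) and 245 (26.6 CPM, 23.3 to 30.1), a ratio of 0.561 (0.480 to 0.653). For both, the CPM intervals of the libraries did not overlap, and of the 12223 genes with at least 100 UMIs over both libraries 119 had a lower ratio than *Rian* and 330 a lower ratio than *Mirg*.

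The proportions within the domain also differed. There were 29.1 *Rian* UMIs per 100 of *Meg3* (27.7 to 30.6) in wild-type and 18.8 (17.4 to 20.3) in knockout ES-side cells. *Mirg* stood at 7.58 (6.93 to 8.28) and 5.93 (5.19 to 6.74) per 100 *Meg3* UMIs. Per 100 *Rian* UMIs, *Mirg* was at 26.1 (23.6 to 28.7) and 31.6 (27.2 to 36.5). Over all ES-side cells *Rian* thus differed from *Meg3* in proportion, while the intervals of *Mirg* over *Rian* overlapped. These totals pool cells of all depths. In cells of 500 to 2000 UMIs, wild-type held 68 *Rian* beside 220 *Meg3* UMIs and knockout 115 beside 454. There the proportions of the libraries lay closer. *Dlk1* and *Rtl1*, the paternally expressed protein-coding genes of the same domain, had 11 and 6 UMIs in wild-type and 5 and 3 in knockout ES-side cells, too few to compare.

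The paternally expressed *Peg3* had 488 UMIs (43.5 CPM, 39.8 to 47.6) in wild-type and 288 (31.2 CPM, 27.7 to 35.0) in knockout ES-side cells. Its ratio of 0.717 (0.618 to 0.831) was close to that of *Meg3*. *Igf2r*, with 304 UMIs (27.1 CPM) and 263 (28.5 CPM), had a ratio of 1.05 (0.888 to 1.24). *Grb10* had 208 UMIs (18.6 CPM) and 167 (18.1 CPM), a ratio of 0.975 (0.791 to 1.20). For *Igf2r* and *Grb10* the interval over all ES-side cells held 1 and left out a difference of 1.5-fold in either direction as far as counting error goes. In cells of 500 to 2000 UMIs the ratios were 6.63 for *Igf2r* (1 and 17 UMIs) and 2.34 for *Grb10* (1 and 6 UMIs).

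The other 4 members were barely detected in ES-side cells. *Peg10* had 49 UMIs (4.37 CPM) in wild-type and 37 (4.01 CPM) in knockout cells, a ratio of 0.917 (0.582 to 1.43). *Igf2* had 43 (3.84 CPM) and 39 (4.23 CPM), a ratio of 1.10 (0.696 to 1.74). Under 20 alternatives the *Igf2* ratio ran from 0.363 to 1.43 and was below 1 in 6. *H19* had 28 UMIs in each library (2.50 and 3.03 CPM), a ratio of 1.21 (0.693 to 2.13). *Cdkn1c* had 18 UMIs (1.61 CPM) and 4 (0.434 CPM), a ratio of 0.270 (0.0665 to 0.820). The *H19* ratio turned on 1 cell, which held 19 of the 28 wild-type UMIs: without the top cell of each library it was 3.65 (1.67 to 8.83), and at a collagen limit of 0.1% it was 4.11 (1.82 to 10.5). The *Cdkn1c* ratio rests on 4 knockout UMIs in 4 cells.

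The order of the levels in wild-type ES-side cells was *Meg3*, *Rian*, *Mirg*, *Peg3*, *Igf2r*, *Grb10*, *Peg10*, *Igf2*, *H19* and *Cdkn1c* on the UMI scale. Reads from 3′ ends do not scale with transcript length, but priming inside long transcripts can add UMIs and was not tested. The CPM intervals of neighbours overlapped for *Mirg* and *Peg3*, for *Peg10* and *Igf2*, for *Igf2* and *H19* and for *H19* and *Cdkn1c*. In knockout cells *Peg3* and *Igf2r* stood above *Mirg*, with overlapping intervals, and *Igf2* above *Peg10*. Among all genes with at least 100 UMIs, 8.87% were more than 1.5-fold higher and 7.78% more than 1.5-fold lower in the knockout library, 16.6% in all, with a median ratio of 1.04. With median of ratios scaling this balance turned, with more genes lower than higher. Of the 6 members with at least 100 UMIs 0 were higher, 2 were lower (*Rian* and *Mirg*, which neighbour each other) and 4 were neither, with a median ratio of 0.717. Among 269 genes annotated as lincRNA, the class of *Meg3* and *Mirg*, 14.1% were higher and 6.32% lower, 20.4% in all, with a median ratio of 1.12.

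**Figure D1:**
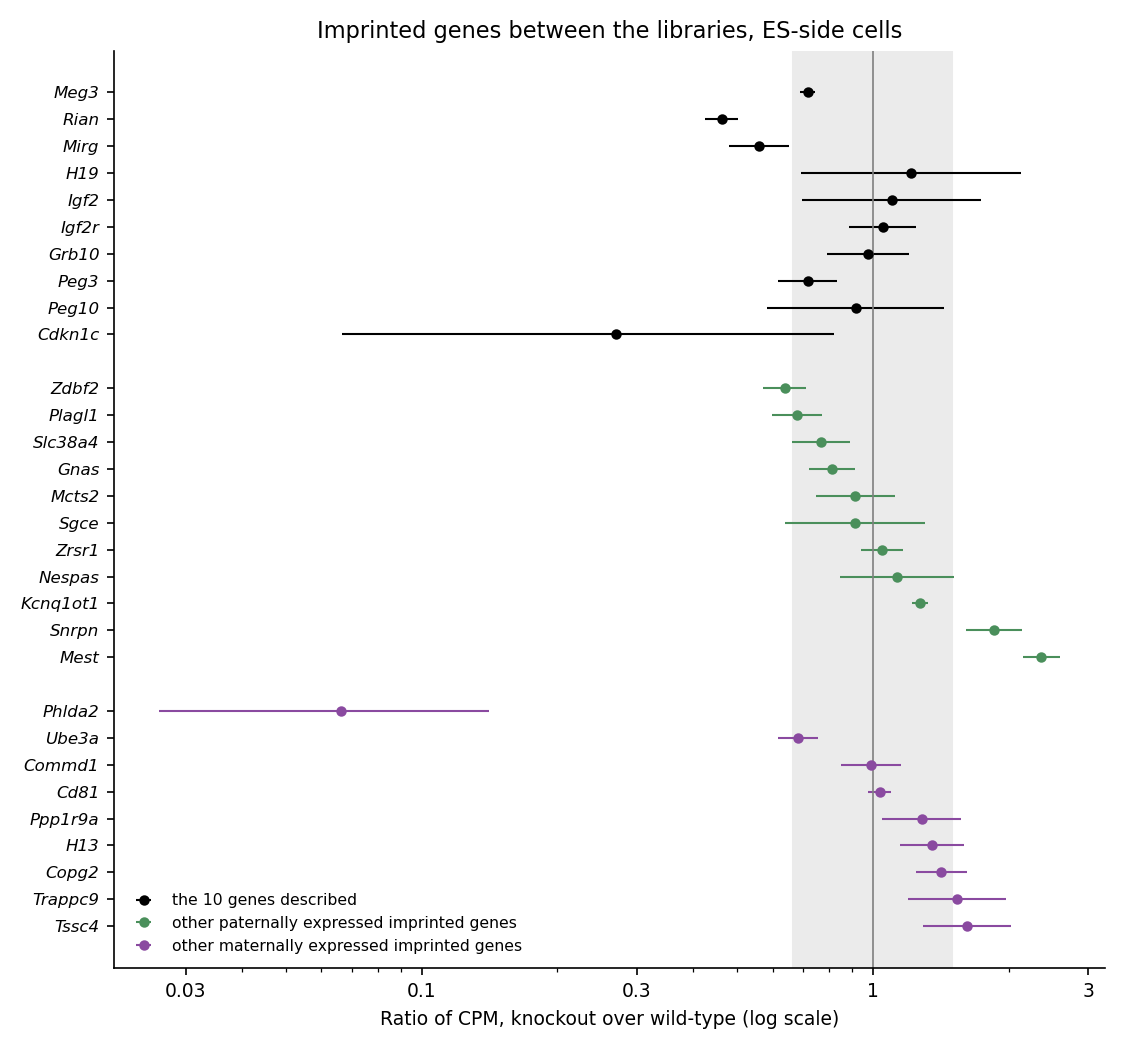
Ratio of CPM in knockout over wild-type ES-side cells (log axis) with exact 95% counting intervals, for the 10 genes (black) and for the other imprinted genes with at least 100 UMIs (green listed as paternally, purple as maternally expressed). The shaded band runs from 1.5-fold lower to 1.5-fold higher; *Rian* at 0.463 and *Mirg* at 0.561 lie left of it and *Igf2r* and *Grb10* near 1, while *Phlda2* at 0.0664 lies farthest from 1.

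Depth and the share of ribosomal protein transcripts differed between the libraries (median 9.62% and 10.7% of UMIs in ES-side cells). The levels of the Dlk1-Dio3 genes differed between ranges of depth. For ribosomal protein share only their ratios between the libraries were taken. In cells of 500 to 2000 UMIs *Meg3* stood at 1181 (wild-type) and 949 CPM (knockout), and in cells of 5000 to 10000 UMIs at 591 and 391. *Rian* went from 365 and 241 CPM in the shallow cells to 175 and 71.2 in the deeper ones. The knockout library had 502 ES-side cells in the shallow range and the wild-type library 208, so the totals mix depths in different shares. Within 5000 to 10000 UMIs the ratios were 0.663 for *Meg3*, 0.407 for *Rian*, 0.428 for *Mirg* and 0.562 for *Peg3*, where 14.4% of all genes were more than 1.5-fold lower. *Meg3* and *Rian* were below 1 in all 4 depth ranges and all 4 ranges of ribosomal protein share, from under 5% to 15% and over. The difference in *Mirg* was not seen from 2000 to 5000 UMIs (ratio 1.0004), nor was that in *Peg3* at 10000 UMIs and over (1.02). The part of depth in the totals was not tested beyond these ranges.

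*Meg3* varied widely among cells within 1 range of depth. Of ES-side cells of 5000 to 10000 UMIs, 1023 wild-type cells held a mean of 4.19 and a median of 3 *Meg3* UMIs, and 501 knockout cells a mean of 2.84 and a median of 2. The cells with 0 *Meg3* UMIs made up 8.11% of the wild-type cells (83 cells) and 24.95% of the knockout cells (125 cells). The highest cell held 24 UMIs in wild-type and 34 in knockout, each a single cell. Cells with 10 or more *Meg3* UMIs made up 8.21% (84 cells) and 3.59% (18 cells), and the 90th percentile was 8 and 7 UMIs. The variance over the mean, which is 1 for counting error alone in cells of 1 level and 1 depth, was 2.998 and 4.29; depth still varied within the range and adds to it. *Kcnq1ot1*, a paternally expressed nuclear noncoding RNA of distal chromosome 7, was at 0 in 18.3% and 18.2% of these cells.

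*Rian* was at 0 in 42.5% of these wild-type and 63.7% of these knockout cells, and *Mirg* in 76.7% and 88.4%. The means were 1.24 and 0.517 UMIs per cell for *Rian* and 0.324 and 0.142 for *Mirg*. Over all ES-side cells, the 5% of cells with most *Meg3* UMIs held 19.7% of them in wild-type and 28.3% in knockout, and for *Rian* these shares were 24.9% and 34.4%. These shares pool cells of all depths, and they also rise where a gene has few UMIs per cell. Among the cells of 5000 to 10000 UMIs, the variance over the mean of *Rian* was 1.996 in wild-type and 1.44 in knockout, lower in the knockout library. This measure also moves with the mean, which was 1.24 and 0.517, so it does not compare the relative spread of the libraries.

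**Figure D2:**
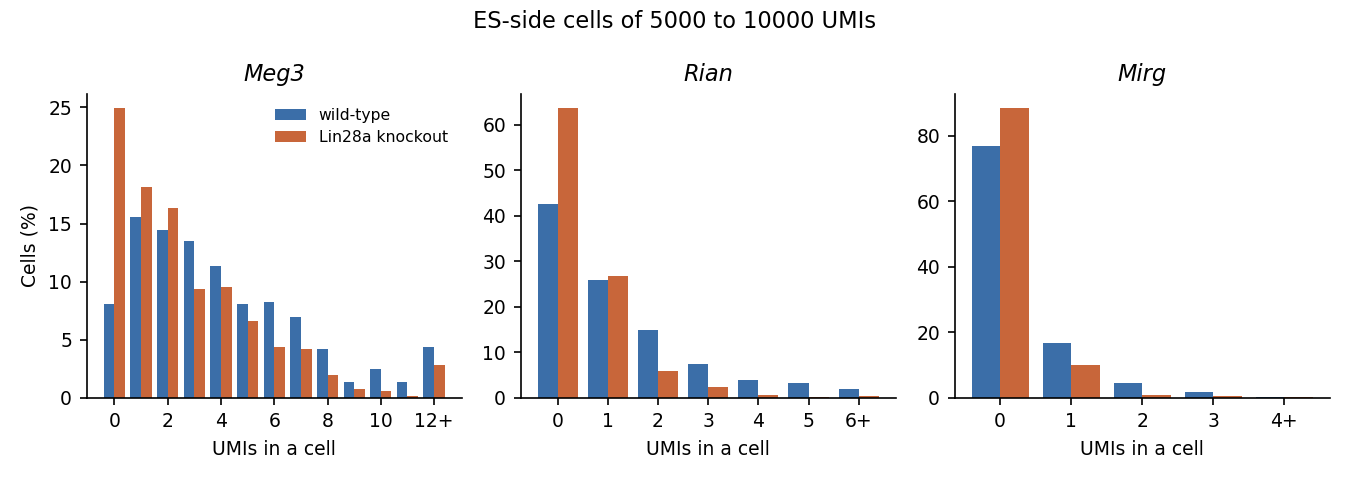
Share of ES-side cells of 5000 to 10000 UMIs (y axis, %) by the number of *Meg3*, *Rian* or *Mirg* UMIs in the cell (x axis; the last bar pools all higher counts), wild-type blue (1023 cells) and knockout orange (501 cells). Cells at 0 *Meg3* UMIs are 8.11% and 24.95%, and both libraries keep cells with 12 or more.

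*Rian* and *Mirg* each rose with the *Meg3* UMIs of the cell in both libraries. Among the cells of 5000 to 10000 UMIs, a *Rian* UMI was found in 59.1% of wild-type cells with *Meg3* and 38.6% of those without, and in 42.6% and 17.6% of knockout cells. For *Mirg* these shares were 24.0% and 14.5% in wild-type and 14.1% and 4% in knockout cells. With the cells grouped by 0, 1 to 2, 3 to 5, 6 to 9 and 10 or more *Meg3* UMIs, *Rian* stood at 90.2, 98.8, 175, 236 and 341 CPM in wild-type and at 29.7, 60.4, 85.9, 110 and 192 CPM in knockout cells. *Rian* was lower in the knockout library in every group. *Mirg* stood at 23.4 CPM in the lowest and 99.8 in the highest group of wild-type cells and at 5.71 and 79.6 in knockout cells. *Peg3*, on another chromosome, ran from 34.3 to 44.7 CPM in wild-type and from 32.0 to 19.9 in knockout cells, with intervals that overlapped. *Kcnq1ot1*, also on another chromosome, ran from 332 (286 to 383) to 439 (391 to 492) CPM in wild-type and from 423 (381 to 468) to 670 (545 to 814) in knockout cells, the last value from 18 cells, so that the intervals of its lowest and highest groups did not overlap. The median depth of the groups rose from 6293 to 8119 UMIs in wild-type and from 6866 to 8679 in knockout cells.

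**Figure D3:**
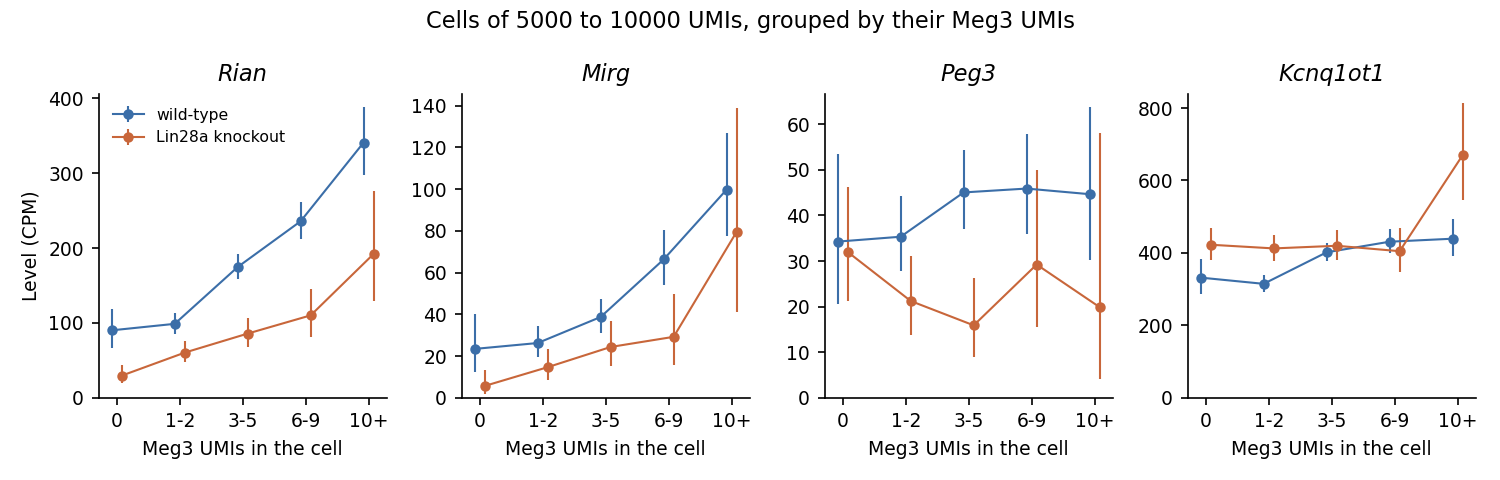
CPM (y axes) of *Rian*, *Mirg*, *Peg3* and *Kcnq1ot1* in ES-side cells of 5000 to 10000 UMIs, grouped by the *Meg3* UMIs of the cell (x axis), with exact Poisson 95% intervals; wild-type blue, knockout orange. *Rian* goes from 90.2 to 341 CPM in wild-type and from 29.7 to 192 CPM in knockout cells, while the *Peg3* intervals overlap across the groups; those of the lowest and highest *Kcnq1ot1* groups do not (332 and 439 CPM in wild-type, 423 and 670 in knockout cells).

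Over ES-side cells of at least 3000 UMIs, *Rian* was the gene most like *Meg3* in both libraries, and *Meg3* the gene most like *Rian*, out of 4923 genes that reached 300 UMIs in both libraries. Pearson's r of log counts per 10000 was 0.326 over 1547 wild-type cells and 0.330 over 996 knockout cells. The cells share their library, and all values share the cell's depth. Among the 20 highest correlations in both libraries were also *Gm48309* (0.145 and 0.137) and *Gm26870* (0.154 and 0.124) for *Meg3*, and for *Rian* *Gm47457* (0.225 and 0.243) and the mitochondrial *mt-Nd1* (0.244 and 0.182), none of them in the domain. *Mirg* and *Peg3* were under the 300 UMIs in the knockout library that this comparison asked for.

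The fibroblast-rule cells gave a scale for the members that ES cells barely express. *H19* had 261 UMIs in 48 fibroblast-rule cells of the wild-type library, 605 CPM (534 to 683). It had 94 in 23 such cells of the knockout library, 817 CPM (660 to 999). These levels were 242 times (164 to 371) and 269 times (175 to 426) those of the ES-side cells. *Igf2* stood at 790 CPM (341 UMIs) and 1416 CPM (163 UMIs), 206 times (150 to 290) and 335 times (235 to 488) the ES-side level. The size of these folds moved with the limits: for wild-type, *H19* was 879 times higher at a collagen limit of 0.1% and 846 times with a minimum of 1000 UMIs, since 1 ES-side cell held 19 of its 28 UMIs, and *Igf2* was 100.7 times higher at a limit of 1%. A few cells carried much of this: in the knockout library 1 cell held 61 of the *H19* UMIs and 1 cell 93 of the *Igf2* UMIs, and without these 33 and 70 UMIs remained. *H19* was found in 18 of 48 and 9 of 23 of these cells and *Igf2* in 31 and 10, so feeders with and without UMIs of either gene were seen.

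*Gm49394*, annotated as a protein-coding gene over *Igf2* on the same strand (chr7:142650769-142669942), took UMIs of the same region. It stood at 1562 and 1815 CPM in fibroblast-rule cells and at 4.46 and 3.79 CPM in ES-side cells, 350 times (262 to 476) and 479 times (333 to 706) higher. In the ambiguous counts, set apart in the deposited tables, *Igf2* had 67 (wild-type) and 64 (knockout) UMIs. The *Igf2* UMIs and CPM above are thus a lower limit for the locus, while its ratios could move either way.

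*Igf2r*, *Grb10* and *Cdkn1c* were also higher in fibroblast-rule cells. *Igf2r* stood at 276 and 330 CPM, 10.2 times (8.15 to 12.6) and 11.6 times (8.01 to 16.3) the ES-side level. *Grb10* stood at 164 and 86.9 CPM, 8.86 times (6.67 to 11.7) and 4.80 times (2.26 to 9.05) the ES-side level. *Cdkn1c* had 10 and 3 UMIs there, 23.2 and 26.1 CPM. *Meg3* was at 1443 and 1399 CPM, 2.31 times (2.12 to 2.51) and 3.12 times (2.65 to 3.65) the ES-side level.

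Among the genes of the *Meg3* domain, *Rian* had ratios whose intervals lay on opposite sides of 1 in the 2 libraries, a difference that was not tested. *Rian* stood at 139 and 156 CPM, a ratio over ES-side cells of 0.764 (0.581 to 0.988) for wild-type and 1.86 (1.10 to 2.96) for knockout. At a collagen limit of 1% the knockout ratio was 0.970 (0.355 to 2.12), from 6 UMIs. *Rian* per 100 *Meg3* UMIs was 9.63 (7.26 to 12.6) in wild-type and 11.2 (6.46 to 18.2) in knockout fibroblast-rule cells, below the 29.1 and 18.8 of the ES-side cells; the knockout interval reaches that of the ES-side cells. *Mirg* had 19 and 11 UMIs, 44.0 and 95.6 CPM, a ratio of 0.929 (0.555 to 1.47) for wild-type and 3.60 (1.77 to 6.55) for knockout, the latter near that of *Meg3*. *Peg3* had 10 and 5 UMIs, 23.2 and 43.4 CPM. *Peg10* had 0 UMIs in the fibroblast-rule cells of both libraries, which allows up to 6.95 CPM in wild-type and 26.1 CPM in knockout, both above its ES-side level. The knockout fibroblast-rule cells were shallower, with a median of 2295 UMIs against 8132, and 10 of 23 had under 2000 UMIs against 6 of 48.

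**Figure D4:**
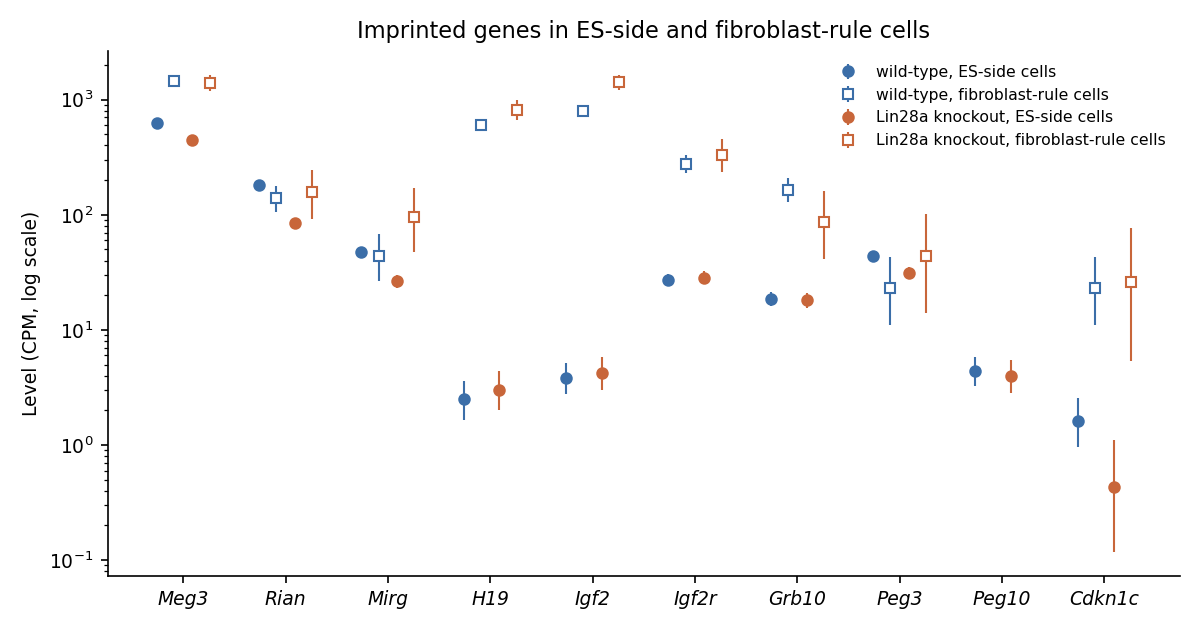
Level of each of the 10 genes in CPM (log axis) with exact Poisson 95% intervals, in ES-side cells (filled circles) and fibroblast-rule cells (open squares) of the wild-type (blue) and knockout (orange) library; *Peg10* had 0 UMIs in fibroblast-rule cells and has no square. At the collagen limit of 0.3% *H19* stands 242 and 269 times and *Igf2* 206 and 335 times higher in fibroblast-rule cells (wild-type *Igf2* 100.7 times at a limit of 1%, wild-type *H19* 879 times at 0.1%), and *Rian* has ratios of 0.764 and 1.86, the latter 0.970 at a collagen limit of 1%.

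The few *H19* and *Igf2* UMIs of ES-side cells were set against free RNA. In the wild-type library 19 of the 28 *H19* UMIs were in 1 cell of 892 UMIs whose collagen share, 0.224%, was just under the limit, and the other 9 were in 9 cells. In the knockout library all 28 were in separate cells. Without the top cell of each library the ratio of knockout over wild-type for *H19* was 3.65 (from 9 and 27 UMIs), so 1 cell decided its value. Per 100 UMIs of 12 fibroblast markers (without *Fn1*, *Sparc* and *Fstl1*, which ES-side cells also held), *H19* had 11.2 UMIs (7.29 to 16.6) in wild-type ES-side cells and 8.34 (7.32 to 9.47) in fibroblast-rule cells. In the knockout library these were 9.56 (6.24 to 14.1) and 18.4 (14.6 to 22.9). *Igf2* had 17.2 (12.1 to 23.8) and 10.9 (9.72 to 12.2) per 100 marker UMIs in the wild-type library, and for knockout 13.3 (9.28 to 18.6) and 31.8 (26.5 to 38.0). In barcodes under 500 UMIs the values were 18.5 (wild-type) and 28.3 (knockout) for *H19* and 53.1 and 44.6 for *Igf2*, all higher than in ES-side cells, with intervals that overlapped for *H19* in wild-type. The intervals in ES-side cells overlapped those in fibroblast-rule cells for wild-type and lay below them for knockout. Single cells decided this for *Igf2* in wild-type and for both genes in knockout. Without the cell with most UMIs of the gene in each group, *H19* had 3.63 (1.64 to 7.002) per 100 marker UMIs in wild-type ES-side cells. In wild-type fibroblast-rule cells *H19* then had 5.95 (5.10 to 6.90), so these intervals overlapped as well. *Igf2* then had 16.5 (11.6 to 23.1) in wild-type ES-side and 9.44 (8.34 to 10.6) in wild-type fibroblast-rule cells, which did not overlap. Without the top fibroblast-rule cell of the knockout library, *H19* had 7.43 (5.05 to 10.6) and *Igf2* 15.8 (12.1 to 20.3) there, which overlap the ES-side intervals. With all 15 markers *H19* stood at 0.350 and 0.425 per 100 in ES-side cells, against 3.34 and 6.01 in fibroblast-rule cells. The part of free RNA in the ES-side levels was not tested. On the CPM scale, *Igf2* in barcodes under 500 UMIs was at 97.9 CPM (wild-type) and 60.9 CPM (knockout), above its ES-side level in both.

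*Cdkn1c* was looked at with the other imprinted genes of its cluster on distal chromosome 7, which is controlled by *Kcnq1ot1*, the antisense RNA that silences its neighbours on the paternal chromosome. *Phlda2*, a maternally expressed gene that limits placental growth, had 128 UMIs (11.4 CPM) in 110 wild-type cells and 7 UMIs (0.759 CPM) in 7 knockout cells. Its ratio was 0.0664 (0.0262 to 0.141), and 2 of 12223 genes had a lower one. *Slc22a18*, a transporter gene between *Cdkn1c* and *Phlda2*, had 34 and 9 UMIs, a ratio of 0.322 (0.136 to 0.685); in cells of 2000 to 5000 UMIs it was 0.972 (0.151 to 4.995), from 5 and 3 UMIs. *Cdkn1c*, *Slc22a18* and *Phlda2* lie within 44812 bases (chr7:143458339-143503150) and held 180 UMIs in wild-type against 20 in knockout ES-side cells, 128 and 7 of which were of *Phlda2*. *Cdkn1c* and *Slc22a18* are under 100 UMIs, and the trio was picked after its values were seen.

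The other genes of the cluster with enough UMIs were not lower. *Kcnq1ot1* had 4381 UMIs (391 CPM) and 4583 (497 CPM), a ratio of 1.27 (1.22 to 1.32). That ratio was 1.12 in cells of 5000 to 10000 UMIs, 2.17 in cells of 500 to 2000 UMIs and 2.04 in cells under 5% ribosomal protein UMIs. *Cd81* had 2474 and 2108 UMIs, a ratio of 1.04. *Tssc4* was higher, at 12.8 and 20.6 CPM, a ratio of 1.61 (1.29 to 2.02). *Kcnq1* itself, *Ascl2* and *Osbpl5* had 1 to 16 UMIs in each library. The counts list *Kcnq1*, which *Kcnq1ot1* overlaps, apart from it, with 1 UMI in each library. Ambiguous UMIs of *Kcnq1ot1* over all barcodes numbered 0 (wild-type) and 3 (knockout). Whether the counting used strand is not given in the sources used here. It is thus not known whether reads from the overlap were assigned to the 2 genes by strand.

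**Figure D5:**
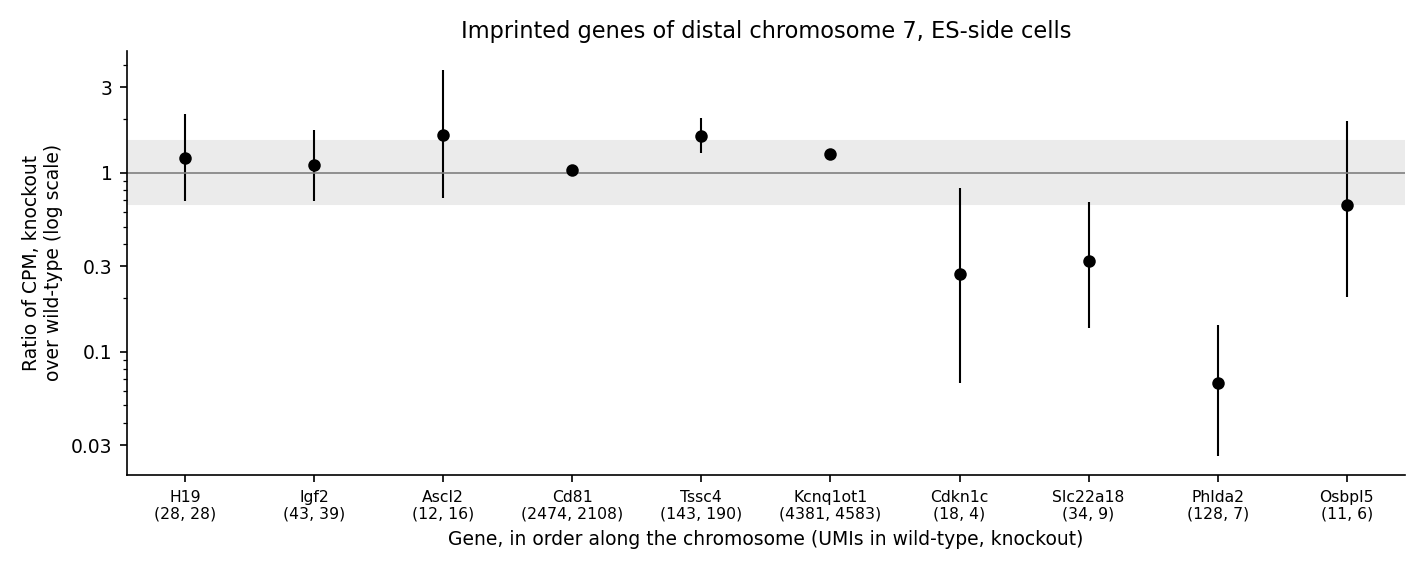
Ratio of CPM in knockout over wild-type ES-side cells (log axis) with exact 95% counting intervals, for imprinted genes in their order along distal chromosome 7, with the UMIs of each library under the name. Genes with under 5 UMIs are left out; *Cdkn1c* (0.270), *Slc22a18* (0.322) and *Phlda2* (0.0664) lie next to each other below the shaded 1.5-fold band, *Osbpl5* (0.663, from 11 and 6 UMIs) lies just below its lower edge with an interval that holds 1, and *H19*, *Igf2*, *Cd81* and *Kcnq1ot1* within it.

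Across 26 other imprinted genes listed here as paternally expressed, 11 had at least 100 UMIs. Of these 2 were over 1.5-fold higher and 1 lower in knockout ES-side cells, beside 8.87% and 7.78% of all genes. Their median ratio was 0.915. The 11 include *Gnas* (0.813), whose UMIs were counted by gene, so transcripts of either parental copy are not told apart. The higher ones were *Mest*, a hydrolase-like gene, at 60.1 and 142 CPM (ratio 2.36, 2.15 to 2.59), and *Snrpn*, which encodes a splicing protein, at 28.8 and 53.4 CPM (1.85, 1.61 to 2.14). The lower one was *Zdbf2*, at 87.7 and 55.9 CPM (0.638, 0.572 to 0.710). In cells of 10000 or more UMIs its ratio was 0.873 (0.711 to 1.07), and in cells of 5% to 10% and 10% to 15% ribosomal protein UMIs 0.706 and 0.743, all within 1.5-fold. Of 24 other genes listed here as maternally expressed, 9 had at least 100 UMIs. Of these 2 were higher (*Tssc4* and *Trappc9*) and 1 lower (*Phlda2*), with a median ratio of 1.28 and the same shares over all genes. Whether the listed genes were imprinted in these ES cells was not measured. *Trappc9* (1.54, 1.20 to 1.98) fell within 1.5-fold with median of ratios scaling (1.47) and in cells of 10% to 15% ribosomal protein UMIs (1.09). *Tssc4* did so in cells of 5% to 10% (1.35) and 10% to 15% (1.39). Median of ratios scaling multiplied every ratio by 0.957. It took *Ube3a* (0.683 before it) of the maternal list and *Plagl1* (0.678 before it) of the paternal list past the lower 1.5-fold limit. Genes of both lists were thus found on both sides of 1. The lists were compared by their counts only.

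The IGF2 pathway and the factors that keep imprints were followed beside their targets. Of 14 other genes of the IGF pathway (the ligand *Igf1*, receptors, docking adaptors, IGF-binding proteins and RNA-binding proteins) 7 had at least 100 UMIs, 0 were higher and 1 lower, with a median ratio of 0.835, against 8.87% and 7.78% of all genes. The lower one was *Igf2bp2*, which encodes a protein that binds *Igf2* mRNA, at 54.3 and 32.3 CPM (0.594, 0.516 to 0.684), and 0.706 in cells of 15% or more ribosomal protein UMIs. *Igf2bp1* was the most abundant at 818 and 648 CPM (0.793). Its level was thus far above that of *Igf2* mRNA itself in the same cells, 3.84 and 4.23 CPM. *Igf1r*, the signalling receptor for IGF2, stood at 34.2 and 28.3 CPM (0.828).

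Of 13 factors of imprint maintenance and DNA methylation 12 had at least 100 UMIs, 0 were higher and 4 lower, with a median ratio of 0.739, where 8.87% of all genes were higher and 7.78% lower. The 4 were *Ctcf*, the insulator protein of the *H19* control region, at 183 and 108 CPM (0.592), *Zfp445* at 40.3 and 24.4 CPM (0.605), and the demethylation enzymes *Tet1* at 440 and 291 CPM (0.661) and *Tet2* at 115 and 76.1 CPM (0.664). These 4 were within 1.5-fold in some groups of cells: in cells of 10000 or more UMIs *Zfp445*, *Tet1* and *Tet2* had ratios of 0.802, 0.776 and 0.823, and in cells under 5% ribosomal protein UMIs *Ctcf* (13 and 64 UMIs) and *Zfp445* (5 and 23) had ratios of 1.19 and 1.11. *Zfp57* stood at 17.5 and 17.3 CPM (0.992) and *Trim28* at 510 and 691 CPM (1.36). *Dnmt1* (0.888) and *Uhrf1* (0.952), which copy methylation at replication, were within 1.5-fold. *Dnmt3b* (0.676) was too, but it passed the lower limit with median of ratios scaling. *Dppa3*, known to protect methylation after fertilization, had 22 and 8 UMIs, too few to compare.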

How the data were processed

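Single mouse ES cells of 2 libraries, wild-type and *Lin28a* knockout, were profiled by inDrop. For each barcode the authors deposited whole-number counts of UMIs by gene, not normalized, beside a column of sums and one of ambiguous counts. The submitters' processing notes name mm10 and Seurat 2.3.4; the study cites a published inDrop pipeline, and its aligner, annotation and use of strand are not given in the sources used here. Versioned Ensembl identifiers were matched without their version to the gene names provided, 54079 of 54146, and to GENCODE M21 (GRCm38). Barcodes were numbered within each library, so barcodes shared by the libraries could not be counted.

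Barcodes with at least 500 UMIs and at most 20% mitochondrial UMIs were kept, as in the study's methods. CPM are a gene's counts in a group of cells over all counts of the group. CPM have exact Poisson, shares exact Clopper-Pearson and ratios exact conditional 95% intervals, for counting error only, since PCR, capture and culture add more. A gene was counted as higher or lower past 1.5-fold, among genes with at least 100 UMIs over ES-side cells of both libraries, with 0.5 added to each count for that count only. For 0 UMIs the limit is the CPM of 3. Detection at 500 UMIs followed the hypergeometric distribution. Doublets were called with Scrublet (27 and 18 cells) and kept, with their removal as an alternative.

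The 10 genes, the lists and the alternatives were chosen with earlier results of these data known. The text names the 10 genes, *Lin28a*, marker genes, listed genes past 1.5-fold with examples by UMIs, and up to 3 genes among the 20 best correlations in both libraries; *Gm49394* and other genes under 100 UMIs were named after their values were seen. No test was made. The ratio code was tested on simulated data. Alternatives were other limits of UMIs, mitochondrial and collagen share, other scaling, doublet removal, and ranges of depth and ribosomal protein share (86 genes). The tools were scanpy 1.11.5, anndata 0.12.19, scipy 1.17.1, numpy 2.4.6, pandas 2.3.3 and matplotlib 3.10.9 under Python 3.11.15.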

Additional observations from a re-analysis of the deposited data

Results flagged for a closer look

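The ratios of fibroblast-rule over ES-side cells lay on opposite sides of 1 in the 2 libraries for 3 genes, and the difference was not tested. For *Rian* the ratio was 0.764 (0.581 to 0.988) for wild-type and 1.86 (1.10 to 2.96) for knockout, and the latter was 0.970 at a collagen limit of 1%. For *Mirg* it was 0.929 (0.555 to 1.47) and 3.60 (1.77 to 6.55), and for *Peg3* 0.532 (0.254 to 0.987) and 1.39 (0.448 to 3.28). The wild-type interval of *Mirg* and the knockout interval of *Peg3* hold 1. The knockout values rest on 18, 11 and 5 UMIs in 23 cells. The *Rian* levels of fibroblast-rule cells had overlapping intervals in the libraries, 139 CPM (106 to 179) and 156 CPM (92.7 to 247). In ES-side cells *Rian* stood at 182 and 84.1 CPM, so its 2 ratios also carry the ES-side difference given above.

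UMIs that could not be assigned to 1 gene, which no comparison used, included 67 (wild-type) and 64 (knockout) for *Igf2*.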

How the results depend on the processing

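No paired analysis was possible because each condition had 1 library. Settings were changed 1 at a time, and where a value moved the cause was not tested. *Meg3* and *Rian* stayed below 1 under 20 of 20 alternatives (0.614 to 0.850 and 0.402 to 0.659) and *Cdkn1c* under 17 of 17 (0.175 to 0.544); *Mirg* and *Peg3* were below 1 under 19 of 20.

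Moved ratios of knockout over wild-type for *H19* were 3.70 with a minimum of 1000 UMIs, 4.11 at a collagen limit of 0.1%, 0.526 with fibroblast-rule cells included, 3.75 without cells under 5% ribosomal protein UMIs and 3.65 without the top cells. *Igf2* moved to 0.550 at a 1% limit, and with fibroblast-rule cells included to 0.655, *Igf2r* to 0.887 and *Grb10* to 0.791. *Meg3* was 0.686 with median of ratios scaling. Without cells under 5% ribosomal protein UMIs *Meg3* was 0.671 and *Rian* 0.407.

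In cells of 5000 to 10000 UMIs the ratio was 2.40 for *H19*, 0.663 for *Meg3*, 0.407 for *Rian*, 0.428 for *Mirg*, 0.562 for *Peg3* and 0.779 for *Grb10*. The ranges that follow were chosen after seeing the data, as were those of ribosomal protein share and the top cells. From 500 to 2000 UMIs it was 0.136 for *H19*, 0.445 for *Igf2*, 6.63 for *Igf2r*, 0.804 for *Meg3*, 0.659 for *Rian*, 0.436 for *Peg3*, 2.34 for *Grb10*, 1.04 for *Plagl1*, 1.08 for *Ctcf* and 1.06 for *Zfp445*, which turned. The value for *Igf2r* rests on 1 wild-type and 17 knockout UMIs, and that for *Grb10* on 1 and 6. From 2000 to 5000 UMIs it was 4.86 for *H19*, 0.486 for *Igf2*, 0.850 for *Meg3*, 1.0004 for *Mirg*, which ended its difference, 0.599 for *Peg3*, 0.463 for *Peg10* and 0.782 for *Grb10*. At 10000 UMIs and over it was 3.13 for *H19*, 1.27 for *Igf2r*, 0.614 for *Meg3*, 0.406 for *Rian*, 0.465 for *Mirg*, 1.02 for *Peg3*, which turned, and 1.30 for *Grb10*. For *H19* these ratios rest on few UMIs in wild-type and knockout. From the shallowest range to the deepest they were 20 and 7, 1 and 3, 5 and 6, and 2 and 12.

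Under 5% ribosomal protein UMIs (83 and 224 cells) the ratio was 0.0127 for *H19* (19 UMIs of 1 wild-type cell against 1), 0.363 for *Igf2*, 0.749 for *Meg3*, 0.632 for *Rian*, 0.655 for *Mirg*, 0.464 for *Peg3*, 1.69 for *Plagl1*, 1.19 for *Ctcf* and 1.11 for *Zfp445*, which turned. At 5% to 10% ribosomal protein UMIs the ratio was 4.81 for *H19*, 0.617 for *Meg3*, 0.402 for *Rian* and 0.455 for *Mirg*. At 10% to 15% it was 4.48 for *H19* and 1.39 for *Grb10*, and at 15% and over 0.843 for *Igf2r*, 0.799 for *Meg3*, 0.632 for *Rian*, 0.919 for *Peg3* and 1.00075 for *Plagl1*, which turned too. Ranges in which a library had 0 UMIs of a gene gave no value.

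The proportions of *H19* and *Igf2* to fibroblast markers moved in 25 of 28 cases without *Fn1*, *Sparc* and *Fstl1*, without the top cell or without both. Fibroblast-rule over ES-side cells moved in the wild-type library to 879 for *H19* at a 0.1% collagen limit, to 846 with a minimum of 1000 UMIs, and to 100.7 for *Igf2* at a 1% limit, and turned in the knockout library to 0.970 for *Rian* at a 1% limit. Genes past 1.5-fold numbered 1084 higher and 951 lower, 2919 and 1690 from 20 UMIs, 9743 and 6761 with no minimum, and 836 and 1201 with median of ratios scaling; 38 and 17 were lincRNA genes. Depth limits every statement on *H19*, *Igf2*, *Peg10* and *Cdkn1c*, which were under 100 UMIs.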

Other observations

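*Grb10* was higher in the shallowest barcodes than in ES-side cells. Barcodes under 500 UMIs, whatever their mitochondrial share, held 40 and 79 *Grb10* UMIs, a level of 91.1 CPM (65.1 to 124) for wild-type and 117 CPM (92.9 to 146) for knockout. ES-side cells of 500 to 2000 UMIs, the next range, held 1 and 6 *Grb10* UMIs, 5.37 CPM (0.136 to 29.9) and 12.5 CPM (4.60 to 27.3). *Mirg* stood at 72.9 and 69.8 CPM under 500 UMIs, against 47.4 and 26.6 CPM in all ES-side cells. In ES-side cells of 500 to 2000 UMIs *Mirg* was not lower, at 123 (78.2 to 185) and 73.2 CPM (51.0 to 102). *Rian* per 100 *Meg3* UMIs was 32.5 (25.05 to 41.9) and 31.8 (24.6 to 40.8) in barcodes under 500 UMIs. Those of the knockout library thus held more *Rian* for their *Meg3* than its ES-side cells of all depths (18.8). Knockout ES-side cells of 500 to 2000 UMIs held 115 *Rian* beside 454 *Meg3* UMIs. What these barcodes hold was not tested.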
